A study of Gallus gallus with 6 samples.

Results

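The genes described here are 9 regulators of programmed cell death out of 16963 genes with an ID in a chicken RNA-seq study: BCL2A1, BCL2, BCL2L1, MCL1, BAK1, BOK and BID of the BCL2 family, the initiator caspase CASP8 and the necroptosis protein MLKL. They were chosen by gene name in the deposited comparison table, and each name belongs to 1 gene ID. The cells were chicken ovarian adenocarcinoma cells (called COVCAR) taken from ascites and kept as 3 primary lines, C27, C29 and C30. After growth to confluence on gelatin-coated flasks and release with trypsin, each line was split in a cell sorter by the activity of aldehyde dehydrogenase (ALDH), which is widely used to enrich stem-like tumour cells. There were 3 ALDH+ and 3 ALDH- libraries, 1 of each per line, and no other treatment, genotype or gate is stated. The bird each line came from is not given. P-values of fits without a term for each line measure the spread between these lines. Those of fits with that term measure how the difference between fractions varied among them.

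Proteins of the BCL2 family decide whether the outer mitochondrial membrane stays intact. BCL2, BCL-XL (encoded by BCL2L1), MCL1 and A1 (encoded by BCL2A1) hold the pore-forming effectors BAK and BAX in check, and BH3-only proteins such as BID relieve that hold. BID links this step to death receptors, because caspase-8 cleaves it into its active form. Caspase-8 also holds back necroptosis, a lytic death in which MLKL breaks the plasma membrane. In mammals BCL2A1 is best known from leukocytes, where inflammatory signals induce it, and dependence on BCL-XL or MCL1 is common among tumour cells.

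Libraries held 22170788 to 26747453 estimated counts in ALDH+ cells and 22926423 to 25383715 in ALDH- cells. Levels are CPM (counts scaled to library size and TMM factors) where one gene is followed across libraries, and TPM (scaled also by transcript length) where genes are compared with each other. Of the epithelial markers tied to the labelled carcinoma, KRT7 stood at 1078 to 2940 CPM in ALDH+ and 629 to 2294 in ALDH- cells. EPCAM stayed between 0.302 and 1.82 CPM in ALDH+ and between 0.0379 and 1.74 CPM in ALDH- cells. CDH1 stood at 0.738 to 1.53 CPM in ALDH+ and 3.99 to 49.5 CPM in ALDH- cells. CLDN3 and ESRP1 stayed at or below 0.226 CPM in all libraries. KRT18 and CLDN1 stood at 59.0 to 157 and 32.7 to 230 CPM in ALDH+ cells. In ALDH- cells they stood at 36.3 to 47.2 and 35.0 to 181 CPM. The summed fibroblast markers ran from 20742.7 to 50692.4 CPM in ALDH+ and from 13796.5 to 36628.5 CPM in ALDH- libraries. Whether the cells were carcinoma cells was not tested. Macrophage and monocyte markers separated the fractions. Of 15 tested, 14 were lower in ALDH+ cells (edgeR, Benjamini-Hochberg adjusted p under 0.05), and the summed level of all 16 found ran from 189 to 349 CPM in ALDH+ and from 5838 to 11575 CPM in ALDH- libraries. None of the 16 was at 0 in any library of either fraction. Among other leukocyte markers, 4 of 4 tested genes of the heterophil list and 5 of 8 of the lymphocyte list were lower in ALDH+ cells. Neither list was tested for being specific to its cell type. KIT of the heterophil list, TIMD4 of the macrophage and monocyte list and CD5 of the lymphocyte list were near 0 in ALDH+ libraries. They stayed at or below 0.181, 0.168 and 0.0903 CPM there. These genes passed the filter on low counts through their ALDH- libraries, so a call for them could only be lower. The sum of the 5 heterophil markers found ran from 27.7 to 56.4 CPM in ALDH+ and from 674 to 6306 CPM in ALDH- libraries, and that of the 12 lymphocyte markers from 25.1 to 42.4 CPM in ALDH+ and from 454 to 959 CPM in ALDH- libraries. The lymphocyte list was uneven. PTPRC, IL2RG, IKZF1, BLK and CD5 fell and the first 4 made up most of the sum, while the T cell genes CD3E (log2 1.29), CD3D (-0.58) and LCK (-0.19) did not pass, and CD4, CD79B and BCL11B stayed at or below 0.336 CPM in ALDH+ and 0.349 CPM in ALDH- libraries. Of 6 epithelial markers tested, CDH1 fell (log2 -4.08, edgeR adjusted p = 0.0471). With each line as a block, CDH1 still fell, and KRT18 (log2 1.35 without the block, edgeR adjusted p = 0.0224 with it), 4 of 11 fibroblast and 2 of 3 mesothelial markers rose. Without the block, 0 of the 11 fibroblast and 0 of the 3 mesothelial markers were called. Of all 12811 genes tested, 5.92% were called higher and 7.6% lower with the block. Without it, 0.835% were called higher and 5.3% lower. The heterophil gene CATHL2 and the B cell factor PAX5 had no counts in any library. Because these are bulk samples, fewer cells of a type and less RNA per cell cannot be told apart, and the part of leukocyte RNA in the results below was not tested.

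Of the 9 genes, BCL2A1 and MLKL fell in ALDH+ cells and none rose (edgeR quasi-likelihood test, adjusted p under 0.05 over 12811 genes). MLKL passed the filter on low counts through its ALDH- libraries, so a call for it could only be lower. At an unadjusted p under 0.05 in edgeR, 3 of the 9 were lower and 1 was higher. No share of all genes at that threshold is given. DESeq2 called 3 lower and 0 higher, where it called 1639 of all genes (613 higher). By limma-voom 1 was lower and 0 higher, where 769 of all genes were called (115 higher). In edgeR, 6.14% of all 12811 genes were called, made up of 5.3% lower and 0.835% higher in ALDH+ cells. When each line served as a block, which uses the shared origin of its fractions, 3 of the 9 fell (BCL2A1, MLKL and MCL1) and 1 rose (BOK), where 13.5% of all genes were called, 7.6% lower and 5.92% higher. Without the ALDH+ library of C27 or of C29, the fit without the block called 1 gene, BCL2A1. The median log2 change of the 9 genes was -0.41, against 0.003 for all genes tested. By CPM, the 3 ALDH+ libraries did not overlap the 3 ALDH- libraries for 5 genes, 4 of them lower and 1 higher in ALDH+. CASP8, among the 4 lower, overlapped by TPM. The separation by CPM held for 25.8% of all genes tested, 14.6% lower and 11.2% higher.

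**Figure D1:**
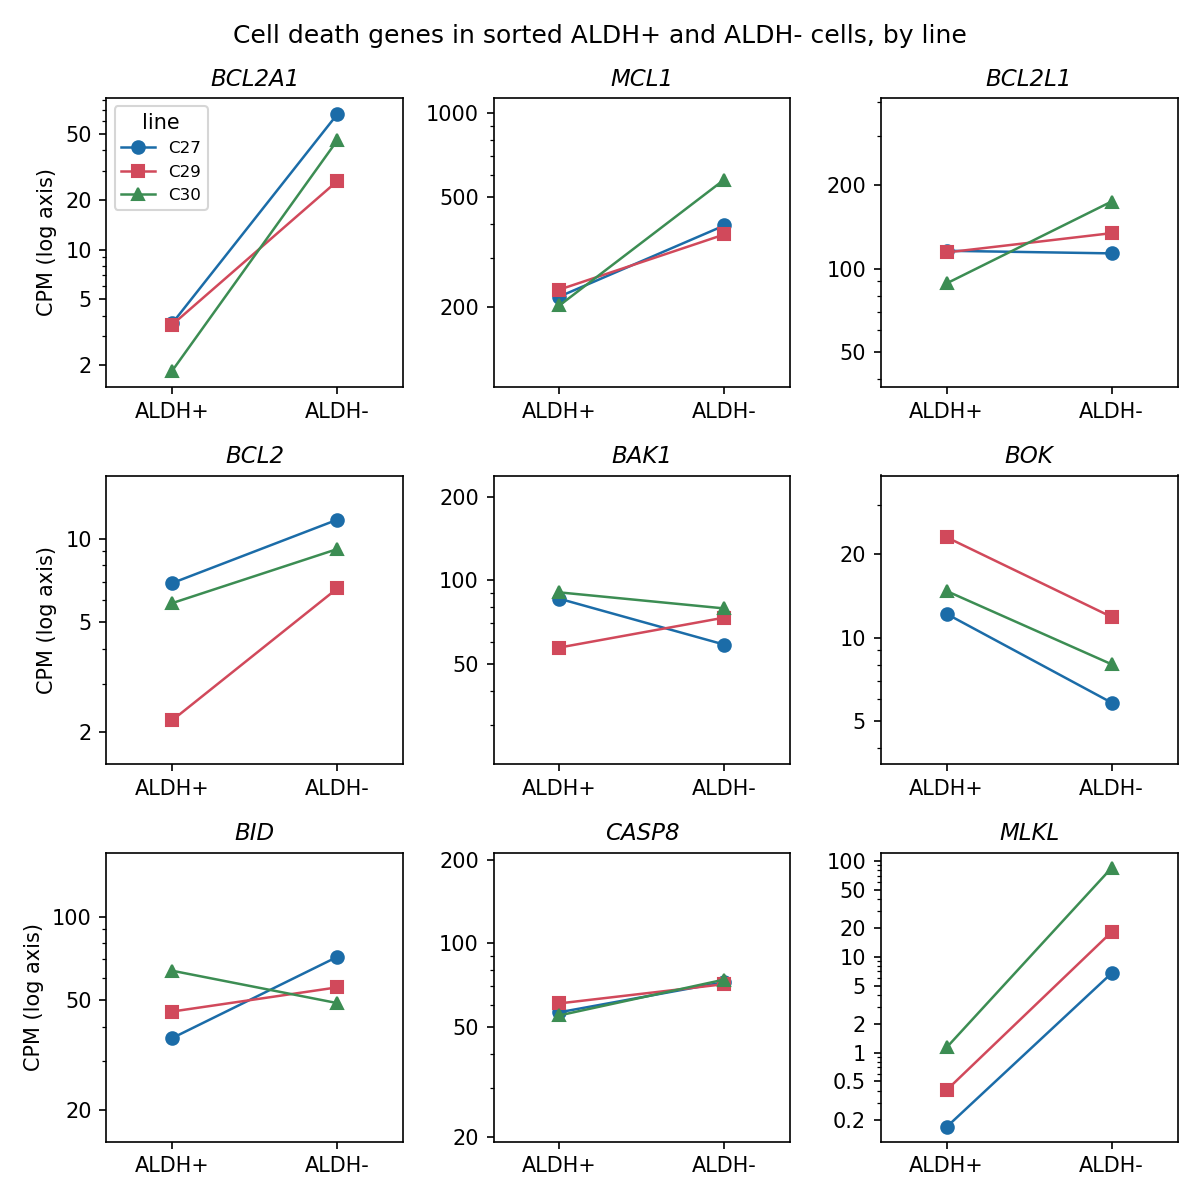
CPM (log axis, panels differ in range) of the 9 genes in ALDH+ (left) and ALDH- (right) cells, 1 point per library with a line joining both fractions of C27, C29 or C30. BCL2A1 and MLKL lie far lower in ALDH+ in every line, and BOK lies higher in every line. For BAK1, BID and BCL2L1 the direction differs between lines, with BCL2L1 nearly level in C27.

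Among the anti-apoptotic genes, BCL2A1 (ENSGALG00000006511), whose protein A1 binds and blocks pro-death BH3 proteins, changed most. It stood at 3.59, 3.52 and 1.86 CPM in ALDH+ cells of lines C27, C29 and C30, against 65.9, 26.0 and 45.8 CPM in ALDH- cells. The groups lay far apart, with every ALDH+ library below every ALDH- library. The ALDH+ mean of 2.99 ± 0.98 CPM was 15.3-fold lower than the ALDH- mean of 45.9 ± 19.95 CPM (SD, n = 3 each). The log2 change was -3.94 (SE 0.45, edgeR adjusted p = 0.00220), and it stayed called whichever single library was removed (adjusted p up to 0.0171). Counts were 107, 78 and 46 in ALDH+ and 1740, 566 and 919 in ALDH- cells.

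MCL1 (ENSGALG00000044383), a short-lived survival protein that restrains BAK, was the most abundant of the 9 genes. Its level was 218, 231 and 203 CPM in ALDH+ cells of lines C27, C29 and C30, against 394, 366 and 577 CPM in ALDH- cells. All 3 ALDH+ values lay in a narrow band below all ALDH- values. The means were 218 ± 14.3 CPM in ALDH+ and 446 ± 115 CPM in ALDH- cells (SD, n = 3 each), 2.05-fold lower in ALDH+. The log2 change of -1.04 (SE 0.25) missed the threshold without the block (edgeR adjusted p = 0.0550). With the line as a block MCL1 fell (log2 -1.01, SE 0.25, edgeR adjusted p = 0.0418). That call stayed without C29 (adjusted p = 0.0155), and with C27 or C30 left out it was not made.

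BCL2L1 (ENSGALG00000006211), which encodes BCL-XL, had 116, 114 and 88.5 CPM in ALDH+ cells of lines C27, C29 and C30, against 114, 134 and 175 CPM in ALDH- cells. Its groups overlapped, and C27 had nearly equal values in both fractions while C30 had the widest gap. The log2 change was -0.41 (SE 0.24, edgeR adjusted p = 0.392), and it was 0.13 on log2(TPM + 1). BCL2 itself (ENSGALG00000012885), the founding member of the family, was scarce, at 6.92, 2.21 and 5.85 CPM in ALDH+ against 11.7, 6.61 and 9.17 CPM in ALDH- libraries. By CPM, BCL2 was lower in the ALDH+ library of each line, but the ranges overlapped across lines, since C27 ALDH+ lay above C29 ALDH-. By TPM, C30 went the other way, at 3.29 in ALDH+ against 2.98 in ALDH- cells. The log2 change of BCL2 was -0.87 (SE 0.47, edgeR adjusted p = 0.345).

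Measured per transcript length, BCL2A1 and BCL2L1 took different shares of the anti-apoptotic transcripts in the fractions. The pool here is BCL2, BCL2L1, MCL1 and BCL2A1, without BCL2L10 (NR-13), which is described with the other pathway genes. BCL2A1 supplied 1.94, 1.90 and 1.13% of the summed TPM of these 4 genes in ALDH+ cells of lines C27, C29 and C30, against 20.1, 9.03 and 10.6% in ALDH- cells. MCL1 supplied 56.6, 60.0 and 59.3% of that sum in ALDH+ and 57.4, 61.0 and 64.2% in ALDH- libraries. BCL2L1 made up 39.7, 37.5 and 37.9% of it in ALDH+, against 20.9, 28.8 and 24.2% in ALDH- libraries. Among these 4 genes MCL1 led in all 6 libraries, BCL2L1 took a larger share in every ALDH+ than in any ALDH- library, and BCL2A1 a smaller one. Within a library, MCL1 exceeded BCL2L1 by 1.43, 1.60 and 1.57-fold in ALDH+ and by 2.75, 2.12 and 2.65-fold in ALDH- cells, a ratio that no scaling between libraries can alter.

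**Figure D2:**
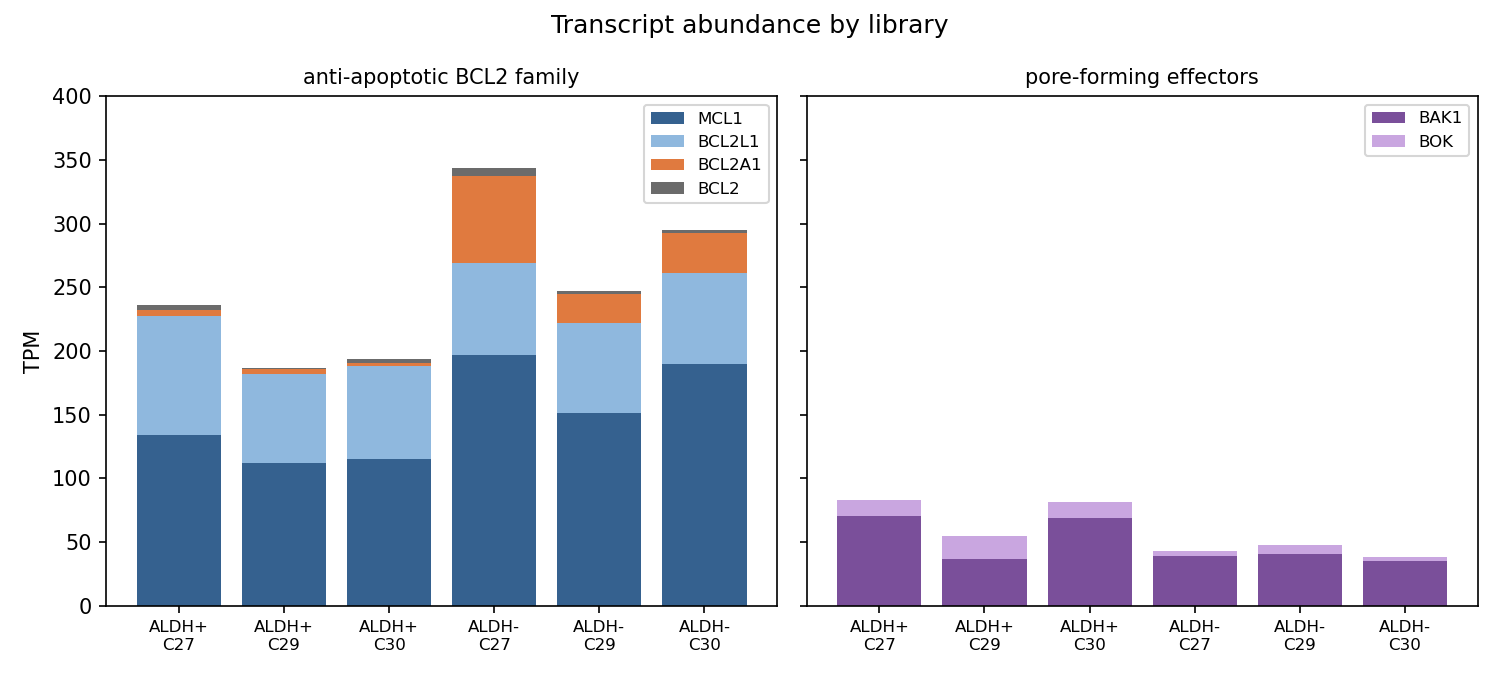
Stacked TPM of the 4 anti-apoptotic genes (left panel) and of the effectors BAK1 and BOK (right panel), 1 bar per library, ALDH+ bars left of ALDH- bars. The BCL2A1 segment is thin in the 3 ALDH+ bars (2.19 to 4.59 TPM) and thick in the 3 ALDH- bars (22.3 to 69.0 TPM).

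Of the effectors, BOK (ENSGALG00000005772) was higher in ALDH+ cells of all 3 lines. BOK is a BAK- and BAX-like protein whose action depends less on the guardian proteins and which also resides at the endoplasmic reticulum. Its level was 12.2, 23.0 and 14.7 CPM in ALDH+ cells of lines C27, C29 and C30, against 5.83, 11.9 and 8.02 CPM in ALDH- cells. Every ALDH+ library lay above every ALDH- library, though C27 ALDH+ only narrowly exceeded C29 ALDH-, and within lines the ALDH+ level was 209, 194 and 184% of the ALDH- level. The means were 16.7 ± 5.67 CPM in ALDH+ and 8.58 ± 3.07 CPM in ALDH- cells (SD, n = 3 each). Without the block the log2 change of 0.96 (SE 0.38) did not pass (edgeR adjusted p = 0.204). With the line as a block BOK rose (log2 0.96, SE 0.23, edgeR adjusted p = 0.0372), a call not made once any of the lines was left out.

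BAK1 (ENSGALG00000031493), which by TPM stood above BOK in all 6 libraries, had 85.8, 57.2 and 90.5 CPM in ALDH+ cells of lines C27, C29 and C30, against 58.6, 73.4 and 79.2 CPM in ALDH- cells. The groups overlapped, and C29 was lower in ALDH+ while the other lines were higher. The log2 change was 0.15 (SE 0.25, edgeR adjusted p = 0.778). The summed TPM of the 4 anti-apoptotic genes exceeded that of BAK1 and BOK by 2.86, 3.43 and 2.39-fold in ALDH+ cells of lines C27, C29 and C30 and by 7.96, 5.20 and 7.67-fold in ALDH- cells. These ratios did not overlap between the fractions. The effector BAX and the family member BCL2L2 were not matched by name, so the ratios leave them out and are not a full balance. With BCL2L10 added to the pool, a choice made after seeing the data, the ratios were 3.41, 4.40 and 3.35 in ALDH+ cells. In ALDH- cells the ratios were then 10.2, 9.06 and 13.0. BCL2L10 then held 16.1, 22.1 and 28.7% of the pool in ALDH+ and 21.8, 42.6 and 40.9% in ALDH- cells, where it exceeded MCL1 in C29 and C30. BCL2L1 kept a larger share (26.99 to 33.3% in ALDH+, 14.3 to 16.6% in ALDH- cells) and BCL2A1 a smaller one (0.807 to 1.63% in ALDH+, 5.18 to 15.7% in ALDH- cells). They are given as a description, and an exact permutation test of 3 libraries against 3 could not give a two-sided p below 0.1.

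BID (ENSGALG00000013039), the BH3-only messenger between caspase-8 and mitochondria, stood at 36.5, 45.4 and 63.7 CPM in ALDH+ cells of lines C27, C29 and C30, against 71.5, 55.5 and 48.7 CPM in ALDH- cells. The groups overlapped, and the order of the lines was opposite in the fractions, with C30 highest in ALDH+ and lowest in ALDH-. The log2 change was -0.27 (SE 0.28, edgeR adjusted p = 0.616), and it was 0.16 on log2(TPM + 1).

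CASP8 (ENSGALG00000008355), the initiator caspase of death receptors, varied little within each fraction on the CPM scale. It stood at 56.4, 60.7 and 55.0 CPM in ALDH+ cells of lines C27, C29 and C30, against 72.5, 71.3 and 74.0 CPM in ALDH- cells. By CPM every ALDH+ library lay below every ALDH- library, at 74.3 to 85.2% of the ALDH- level of its line. By TPM the groups overlapped, at 53.2 to 62.5 in ALDH+ and 43.8 to 65.8 in ALDH- libraries. The means were 57.4 ± 2.99 CPM in ALDH+ and 72.6 ± 1.39 CPM in ALDH- cells (SD, n = 3 each). Despite the separation by CPM, the log2 change of -0.34 (SE 0.19) did not pass (edgeR adjusted p = 0.354 without the block and 0.261 with it). On log2(TPM + 1) the change had the other sign, at 0.0949.

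MLKL (ENSGALG00000002766), the executioner of necroptosis, had the largest change of the 9 genes. Its level was 0.168, 0.406 and 1.13 CPM in ALDH+ cells of lines C27, C29 and C30, against 6.70, 18.04 and 83.9 CPM in ALDH- cells. Each ALDH+ library held 1.35 to 2.5% of the ALDH- level of its line, and no ALDH+ library reached any ALDH- library. The ALDH+ values rest on 5, 9 and 28 counts, against 177, 393 and 1684 counts in ALDH- cells. MLKL thus passed the filter on low counts through its ALDH- libraries, so a call for it could only be lower. The log2 change was -6.00 (SE 1.13, edgeR adjusted p = 0.0184). The call was lost when C27 ALDH+ (edgeR adjusted p = 0.0626) or C29 ALDH+ (edgeR adjusted p = 0.0854) was removed, and in limma-voom (adjusted p = 0.0626), all fits without the block. With the line as a block MLKL fell by 5.76 on the log2 scale (SE 0.33, edgeR adjusted p = 0.000766), and it stayed called whichever line was left out (log2 -5.94 to -5.38, adjusted p up to 0.000548).

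MLKL was also the one gene of the 9 that differed between the lines (edgeR F test for line in the fit that also holds the fraction, adjusted p = 0.0437), a call made for 0.367% of all genes tested. Its order was the same in both fractions, with C30 highest and C27 lowest. C30 exceeded C27 by 6.74-fold in ALDH+ and by 12.5-fold in ALDH- cells. The ALDH+ fold rests on 28 against 5 counts, and the ALDH- fold on 1684 against 177. BOK had its highest level in C29 in both fractions, but its line differences did not pass (adjusted p = 0.208), nor did those of BCL2 (adjusted p = 0.232). The other 6 genes had adjusted p values of 0.460 to 0.985 in that edgeR test.

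The falls of BCL2A1 and MLKL stood beside those of leukocyte markers. The ALDH+ level as a share of the ALDH- level of the same line was 5.45, 13.6 and 4.06% for BCL2A1 in C27, C29 and C30, and 2.5, 2.25 and 1.35% for MLKL. For the summed macrophage and monocyte markers this share was 5.69, 5.47 and 1.63%, and for summed fibroblast markers it was 126, 212 and 150%. The summed heterophil markers had shares of 4.35, 1.44 and 0.894%, and the summed lymphocyte markers 6.75, 5.52 and 4.42%. CASP8, MCL1, BCL2L1, BCL2, BAK1, BOK and BID all kept at least 33.5% of the ALDH- level in each line. In ALDH- cells of lines C27, C29 and C30 the macrophage and monocyte sum was 6131, 5838 and 11575 CPM, and the heterophil marker sum, most of it S100A12 in C29 and C30, was 674, 1924 and 6306 CPM. The heterophil sum, S100A12 and LYZ ordered the ALDH- libraries as MLKL did, while CSF3R (322, 245 and 400 CPM) and KIT (2.84, 3.07 and 2.39 CPM) did not. Single macrophage and monocyte genes were split as well. MARCO (1527, 1739 and 4157 CPM) and VSIG4 (225, 349 and 890 CPM) had the order of MLKL in ALDH- cells. SPI1 (230, 194 and 375 CPM) and CSF1R (650, 295 and 501 CPM) did not, so this order was not particular to the heterophil list. The part of these markers in the MLKL result was not tested.

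**Figure D3:**
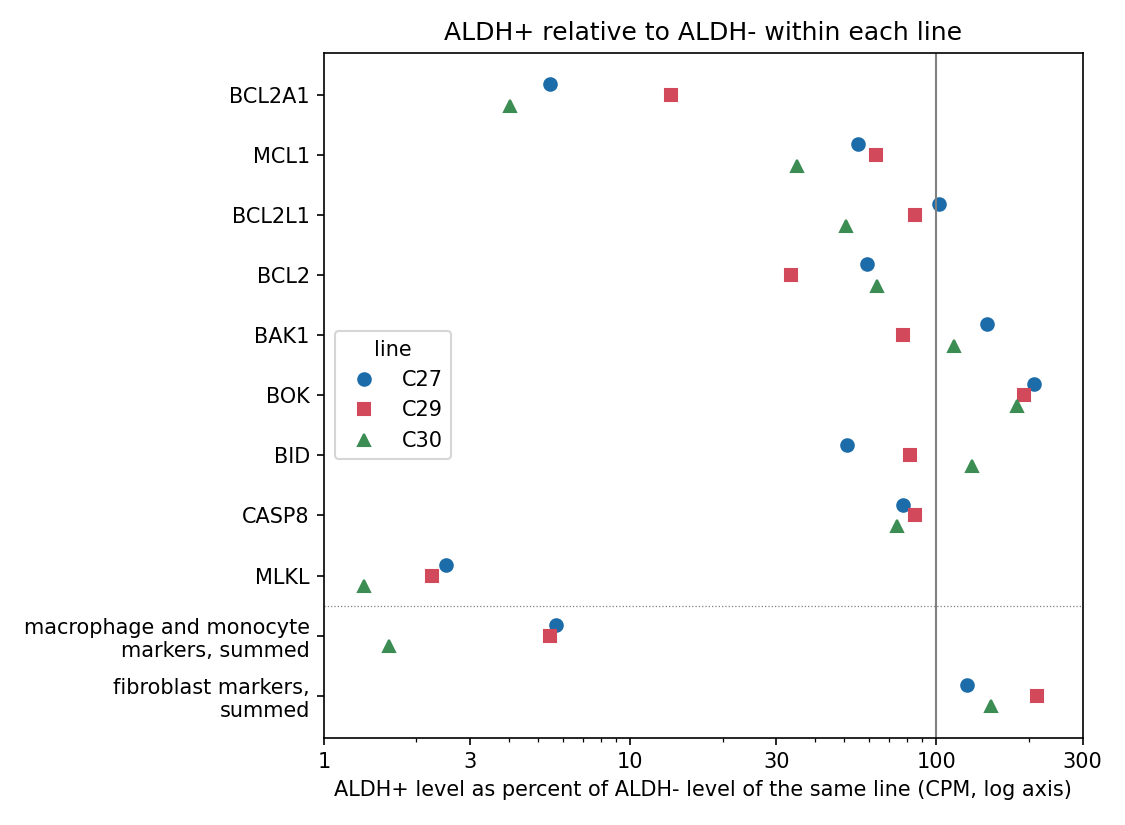
ALDH+ level as a percent of the ALDH- level of the same line (CPM, log axis) for the 9 genes and for 2 summed marker lists, 1 point per line, with the grey line at 100%. BCL2A1 (4.06 to 13.6%) and MLKL (1.35 to 2.5%) lie far below 100%, while the other 7 genes lie between 33.5 and 209%. The macrophage and monocyte sum, the only leukocyte list drawn, lies at 1.63 to 5.69%.

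Ordered by mean TPM, the 9 genes ran in ALDH+ cells from MCL1 (120 ± 11.8) and BCL2L1 (79.1 ± 12.8) through BAK1 (58.5 ± 18.7), CASP8 (57.4 ± 4.77) and BID (55.7 ± 15.2) to BOK (14.2 ± 2.93), BCL2A1 (3.44 ± 1.201), BCL2 (2.85 ± 1.62) and MLKL (0.535 ± 0.49; SD, n = 3 for each). The ranges of neighbours in this order did not overlap between MCL1 and BCL2L1, between BID and BOK, and between BOK and BCL2A1. The other neighbours overlapped. In ALDH- cells the order was MCL1 (179 ± 24.8), BCL2L1 (71.5 ± 0.21), CASP8 (54.3 ± 10.99), BID (51.5 ± 21.4), BCL2A1 (40.8 ± 24.8), BAK1 (38.1 ± 3.01), MLKL (21.8 ± 22.0), BOK (5.02 ± 1.85) and BCL2 (3.83 ± 1.71 TPM). There MCL1 stood clear of BCL2L1 and BCL2L1 of CASP8, while each later pair overlapped. The ratio of CASP8 to MLKL TPM was 357, 159 and 51.6 in ALDH+ cells of lines C27, C29 and C30. In ALDH- libraries it was 11.5, 4.19 and 0.936, so MLKL stood slightly above CASP8 in the ALDH- library of C30. The ALDH+ ratios rest on 5, 9 and 28 MLKL counts.

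BCL2L1, MCL1, BOK and BID, 4 of the 9 genes, were counted on more than 1 transcript, and the shares of the transcripts varied among libraries of both fractions. MCL1 came mainly from a transcript of 2839 bases, with 93.3 to 97.3% of the gene's TPM in ALDH+ and 93.4 to 94.3% in ALDH- libraries. For BCL2L1 a transcript of 2416 bases led, with 79.1, 86.9 and 62.6% in ALDH+ cells of lines C27, C29 and C30 and 86.6, 84.1 and 89.6% in ALDH- cells. A BCL2L1 transcript of 1182 bases held 32.6% of the gene's TPM in C30 ALDH+, against 8.59% in C30 ALDH-. The BOK transcript of 1804 bases held 71.4, 88.6 and 73.0% of BOK in ALDH+ and 44.3, 67.3 and 78.7% in ALDH- libraries. Its log2 change was 1.4 (SE 0.54), while the longer BOK transcript of 2639 bases stood at 0.01 (SE 0.47). BID was split over 7 transcripts, of which a transcript of 1509 bases held 0.112, 17.9 and 0.0039% in ALDH+ and 1.03, 10.2 and 14.2% in ALDH- libraries. How well reads separate transcripts that share exons cannot be seen in these tables.

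Tested per transcript, 19 of the 22 transcripts of the 9 genes passed the filter. The single transcripts of BCL2A1 (edgeR adjusted p = 0.00972) and MLKL (edgeR adjusted p = 0.0479) fell, where 3.38% of 18368 transcripts were called, and the other 17 did not pass. The same 2 were called with the block (edgeR adjusted p = 0.0355 and 0.0291), where 2.22% of transcripts were. The authors' deposited table, which is also per transcript, gives log2 changes of -3.9 (SE 0.48) for BCL2A1 and -6 (SE 0.97) for MLKL, with adjusted p = 1.06e-11 and 1.29e-05. It lists the 2839-base transcript of MCL1 at -1 (SE 0.28), with a false discovery rate of 0.0057 and an adjusted p of 0.99997 in the authors' deposited table. The headers do not name the method of that adjusted p. It was stricter than the rate for this transcript and is not comparable with the Benjamini-Hochberg values of edgeR. By that rate 3 of the 20 transcripts that carry one passed 0.05, where 9.12% of all rated transcripts of the authors' deposited table did. By its adjusted p 2 of 22 passed, against 2.4% of all.

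**Figure D4:**
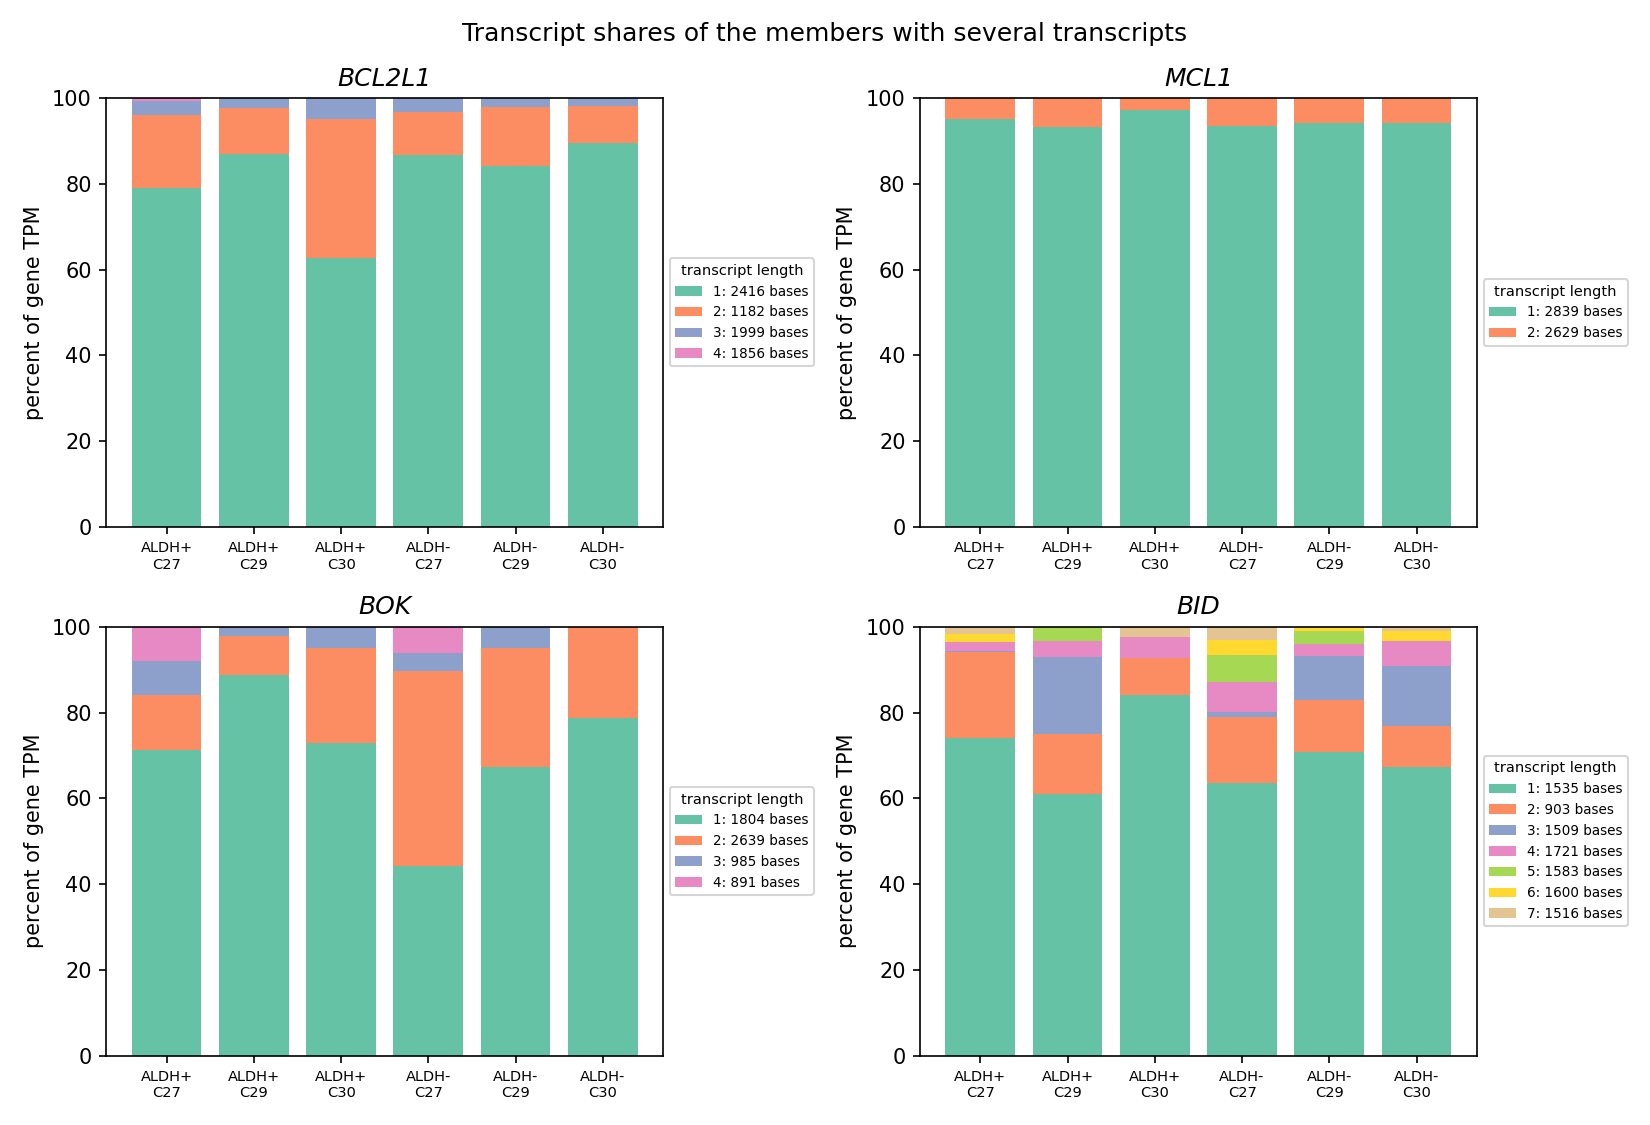
Share of each transcript in the summed TPM of its gene (percent) for the 4 genes with several transcripts, 1 bar per library, ALDH+ bars left of ALDH- bars, with transcript lengths in the legends. The leading BCL2L1 transcript drops to 62.6% in C30 ALDH+. The BOK transcript of 1804 bases drops to 44.3% in C27 ALDH-, where the one of 2639 bases holds 45.5%.

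Other genes of the same death pathways were taken from a list of 68 symbols, of which 54 were matched by name and 52 tested. In edgeR 4 fell and none rose, beside the 5.3% lower and 0.835% higher among all genes tested. At an unadjusted p under 0.05 in edgeR, 2 were higher and 10 lower, and no share of all genes at that threshold is given. DESeq2 called 8 lower and 0 higher, where it called 1639 of all genes (613 higher). By limma-voom 4 were lower and 0 higher, where 769 of all genes were called (115 higher). In edgeR with the line as a block, 9 fell and 1 rose, where 7.6 and 5.92% of all genes did. The list's median log2 change was -0.16, against 0.003 for all genes tested, and 42 genes passed in neither fit, with log2 changes from -1.83 to 0.79. The lowest was that of TNFRSF25, which passed the filter on low counts through its ALDH- libraries.

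The 4 genes that fell act at different steps. BCL2L10, known in the chick as NR-13 and anti-apoptotic there, averaged 60.7 ± 17.98 CPM in ALDH+ and 238 ± 123 CPM in ALDH- cells (SD, n = 3 each; log2 -1.97, SE 0.45, edgeR adjusted p = 0.0392). VDAC1, a channel of the outer mitochondrial membrane, averaged 47.6 ± 2.49 CPM in ALDH+ and 118 ± 14.8 CPM in ALDH- cells (log2 -1.30, SE 0.20, edgeR adjusted p = 0.00776). CASP18, a caspase-8-like protease present in birds, averaged 3.89 ± 1.27 CPM in ALDH+ and 15.8 ± 3.02 CPM in ALDH- cells (log2 -2.02, SE 0.36, edgeR adjusted p = 0.0139). The gasdermin gene GSDMA, of a family whose cleaved members open pores in the plasma membrane, averaged 6.39 ± 1.27 CPM in ALDH+ and 25.7 ± 3.77 CPM in ALDH- cells (log2 -2.01, SE 0.28, edgeR adjusted p = 0.00458). Each of the 4 was lower in ALDH+ in 3 of 3 lines. GSDMA and VDAC1 passed whichever single library was removed (adjusted p up to 0.0307 and 0.0488). On the 3 log2 TPM settings neither VDAC1 (adjusted p = 0.0877 to 0.0929) nor CASP18 (adjusted p = 0.0596 to 0.12) passed. CASP18 also did not pass once C27 ALDH+ was removed (adjusted p = 0.0626), and BCL2L10 passed only when the removed library was C27 ALDH- (adjusted p up to 0.14 otherwise). The median log2 change of the macrophage and monocyte markers was -5.11.

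Among all genes tested, 5.3% were called lower and 0.835% higher without the block, and 7.6 and 5.92% with it. Beside these shares, counts of 0 or 1 in the small roles below are not read as results about those roles. By role, 1 of 12 tested BCL2 family relatives fell, and 4 with the line as a block. The added ones were the BH3-only genes BIK (log2 -2.11, edgeR adjusted p = 0.0392) and PMAIP1 (NOXA, an antagonist of MCL1; -2.07, adjusted p = 0.0414) and BCL2L14 (-1.66, adjusted p = 0.0465), all values with the block. Of 7 caspases, CASP18 fell and CASP9, the apoptosome protease, joined it with the block (-1.09, edgeR adjusted p = 0.0369). None of 11 death receptor and adaptor genes passed in edgeR with or without the block, and 0 were called by DESeq2 or limma-voom. At an unadjusted p under 0.05 in edgeR without the block, 1 was higher and 2 were lower. Of the 2 lower, TNFRSF25 had 13, 5 and 2 counts in ALDH+ and 22, 23 and 17 in ALDH- libraries. It passed the filter on low counts through its ALDH- libraries, so it could only come out lower. The 11 genes included CFLAR, the decoy that curbs caspase-8, at 0.42 (edgeR adjusted p = 0.467), and the adaptor FADD at 0.49 (edgeR adjusted p = 0.457). Of 4 genes around RIPK1, the NF-kB inhibitor TNFAIP3 fell with the block (log2 -1.29, edgeR adjusted p = 0.0174), and RIPK1 itself stood at -0.29 (adjusted p = 0.463). The necroptosis genes RIPK3 and ZBP1, also on the list, were not matched by name, so nothing is known of them here. MDM2, which restrains p53, rose with the block (log2 1.00, edgeR adjusted p = 0.0207) and was the 1 gene of the list to do so. Of 10 genes of the mitochondrial step, VDAC1 fell, and neither of 2 tested inhibitors of apoptosis (BIRC3 and BIRC5) passed in edgeR, where 0 had an unadjusted p under 0.05 and DESeq2 and limma-voom also called 0.

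**Figure D5:**
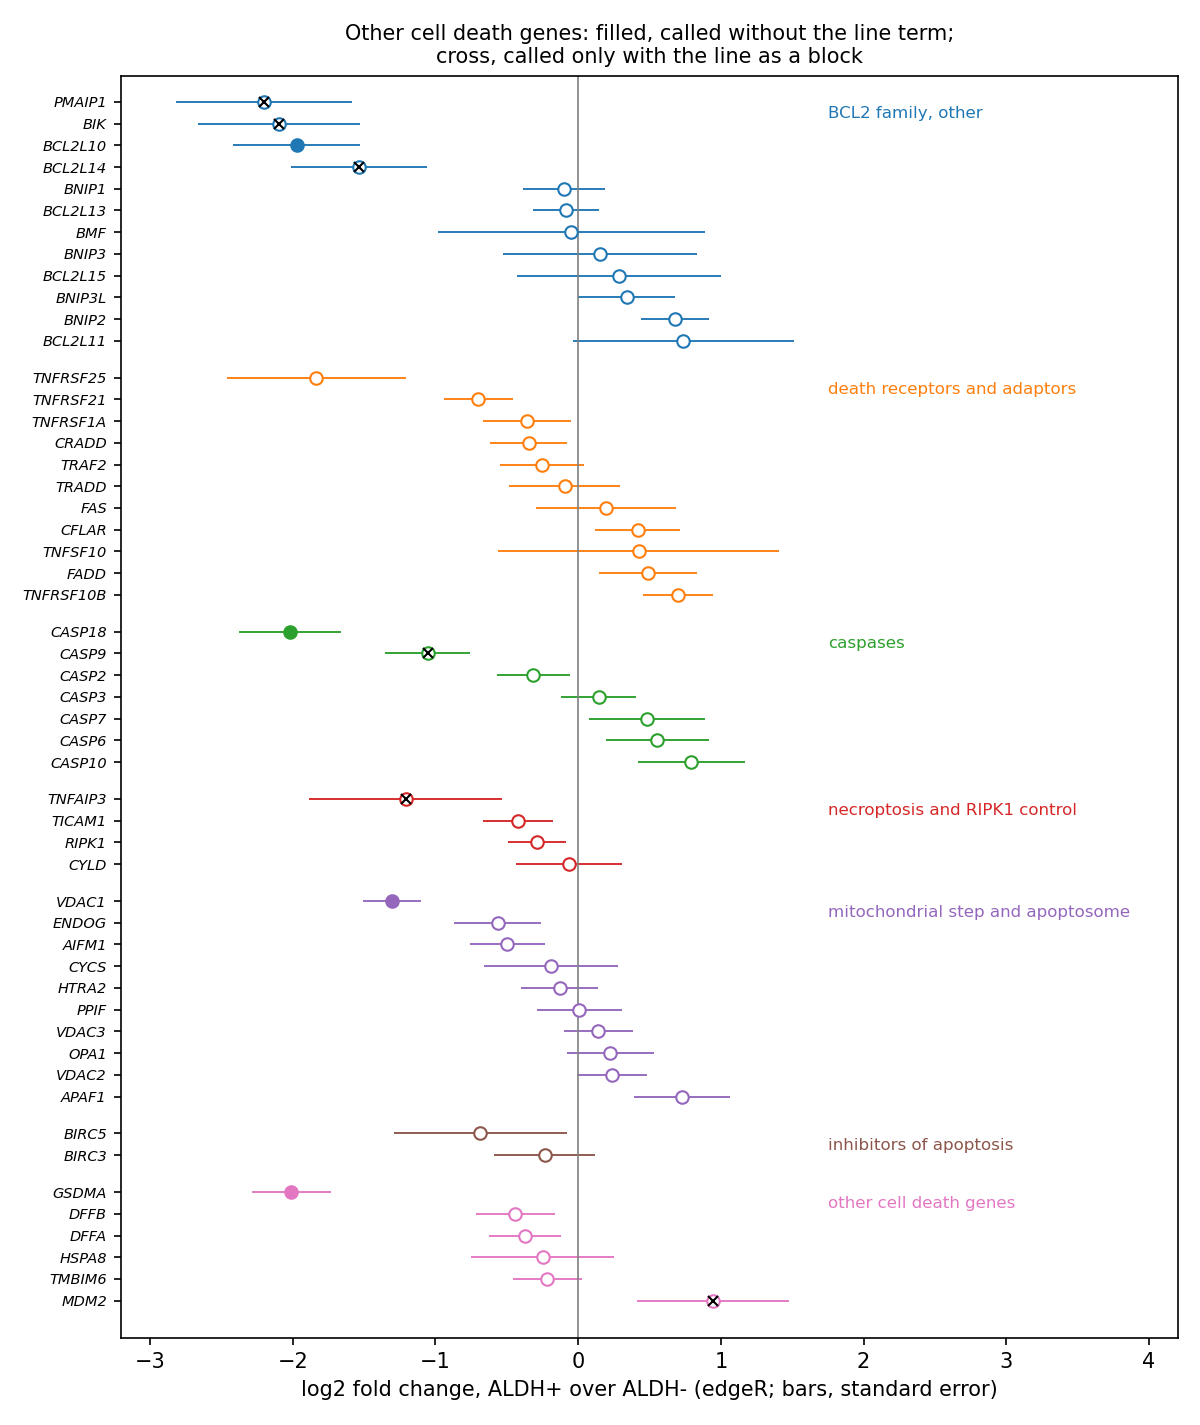
Log2 fold change of ALDH+ over ALDH- (edgeR without the block; bars, standard error) for the 52 tested pathway genes, coloured and grouped by role. Filled points (4 genes, at -2.02 to -1.30) were called without the block, and crosses mark the 6 called only with it.

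Genes most like each pattern were sought by Pearson correlation of log2 CPM over the 6 libraries among 9790 other named genes with a mean of at least 1 CPM over the 6 libraries, as a description only, since all share these 6 libraries. BCL2A1 was most like PPIL2 (r = 0.9988), P2RY14 (r = 0.9982) and PIK3R6 (r = 0.9980). MLKL was most like COQ2 (r = 0.9958), HSPBAP1 (r = 0.9955) and RTFDC1 (r = 0.9939). CASP8 was most like ARRDC2 (r = 0.9969), TRAF3IP3 (r = 0.9959) and B3GNT4 (r = 0.9958). Likeness of pattern did not mean likeness of size, as PPIL2 ranged from 24.7 to 27.6 CPM in ALDH+ and from 37.7 to 42.3 CPM in ALDH- libraries.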

How the data were processed

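Total RNA of sorted ALDH+ and ALDH- cells from 3 lines was sequenced as 6 bulk libraries, grouped by the labels' sort and line. The submitters' processing notes name FastQC, Trimmomatic, HISAT2, kallisto and DESeq2 and the build GRCg6a, without roles. The authors deposited estimated counts (expected counts) and TPM per transcript. Their comparison table lists, per the file headers, library-wise signal (deposited counts divided by a size factor), a fold ratio, log2 changes, a Wald score and p-values; transcript lengths are an other value given there.

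Counts of 28756 transcripts were summed to 16963 genes and rounded to whole numbers, leaving out 319 transcripts without a gene ID (0.285 to 0.328% of counts). The main test was edgeR 4.0.16 in R 4.3.3 (quasi-likelihood, TMM, filterByExpr with a minimum count of 10 and total of 15, Benjamini-Hochberg, two-sided), with DESeq2 1.42.0, limma 3.58.1 and other settings as alternatives. TMM assumes that most genes do not differ. SE values derive from the F statistic, and log2 CPM used a prior count of 2. Both fractions of a line share that line, so the samples are paired; the blocked fit, with a term for each line, is given beside the main one where it changes a call. As a check, deviations from the group means correlated at r = 0.66, 0.17 and 0.49 within C27, C29 and C30. The 9 genes, the pathway list and the marker lists were chosen with earlier results of these data known. All 9 genes are named, as is each pathway gene called with or without the block, and 3 genes most like BCL2A1, MLKL and CASP8; other genes were chosen after their values were seen. The gene table at hand is of another build, so no positions are given.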

Additional observations from a re-analysis of the deposited data

Results flagged for a closer look

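BID and BAK1 moved in opposite directions in different lines, and with 1 library per line and fraction this difference was not tested. The log2 change of BID was 0.39 in C30 and -0.97 in C27. That of BAK1 was 0.55 in C27 and -0.36 in C29. BCL2L1 was level between the fractions in C27 (log2 0.03) and lower in ALDH+ in C30 (log2 -0.98), a difference in size that was not tested either.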

How the results depend on the processing

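BCL2A1 kept its direction and its call under all 18 alternatives run for it (log2 -4.40 to -3.11), and MLKL kept its direction under 18 and its call under 14. On log2 TPM, BCL2L10 missed the threshold without a filter (adjusted p = 0.0895). MLKL also missed the threshold on log2(TPM + 1) without a filter (adjusted p = 0.0501). BOK also passed on log2(TPM + 1) and log2(TPM + 0.1) (adjusted p = 0.0426 and 0.0445), and MCL1 in DESeq2 (adjusted p = 0.00946). The replicate block changed no call of the 9 genes other than those of MCL1 and BOK. The median change of all genes was 0.003 with TMM, 0.119 under upper quartile scaling, 0.175 under library size alone, and 0.362, 0.408 and 0.234 on log2(TPM + 1), log2(TPM + 0.1) and log2(TPM + 1) without a filter. On these TPM settings, in the same order, BCL2L1 turned to 0.13, 0.13 and 0.13, BID to 0.16, 0.16 and 0.16, and CASP8 to 0.0949, 0.10 and 0.0949, although relative to the median of all genes each stayed below 0 (from -0.44 to -0.10, -0.31 to -0.07 and -0.37 to -0.14 over 7 scalings). With the block and without C27, BAK1 turned to -0.0557 and BID to 0.0764; this was chosen after seeing the data. The cause was not tested.

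Of the 9 genes, limma-voom and log2(TPM + 1) without a filter called 1, the replicate block 4, fits without 1 library 1 to 2, and block fits without 1 line 2 to 3. Pathway calls numbered 8 in DESeq2, 2, 2 and 1 on the TPM settings, 10 with the replicate block, and 2 to 4 without 1 library. Calls over all genes numbered 786 (13.6% higher in ALDH+), 1639 in DESeq2 (37.4% higher), 1732 with the replicate block (43.8%), 773 and 743 on filtered log2 TPM (34.7 and 32.0%), and 443 to 1123 without 1 library (2.3 to 32.9%). Transcript calls numbered 0 to 2 without 1 library. The 0 came from edgeR with C29 ALDH+ removed, where 6 transcripts had an unadjusted p under 0.05. MLKL was the gene that differed between lines under each of the 4 alternatives. Depth limits MLKL in ALDH+ cells most, at 5 to 28 counts per library.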

Other observations

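Of 52 pathway genes, TNFSF10 was the 1 that differed between the lines (edgeR F test, adjusted p = 0.0451), where 0.367% of all genes tested did. TNFSF10 encodes the death ligand TRAIL. It stood at 492, 249 and 54.7 CPM in ALDH+ cells of lines C27, C29 and C30, against 466, 92.2 and 33.9 CPM in the ALDH- libraries. C27 was highest and C30 lowest in both fractions, the reverse of the order of MLKL. Between the fractions TNFSF10 did not pass (log2 0.42, SE 0.99, edgeR adjusted p = 0.840). C30 held 0.111 of the C27 level in ALDH+ and 0.0726 of it in ALDH- cells.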
